A study of Mus musculus with 6 samples.

Results

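The 7 genes of the CXC chemokine cluster on mouse chromosome 5 (Cxcl5, Ppbp, Pf4, Cxcl3, Cxcl15, Cxcl1 and Cxcl2) were followed across 3 tachypaced and 3 control libraries. They were taken by gene name from a table of 23060 rows, in which each of the 7 has a row, and they were picked with the tachypaced against control values of these libraries known. Their differences between the groups are therefore described and not tested. Tachypaced cells were WT cells with the label HL-1, the name of a cardiomyocyte line from mouse atrium, kept under rapid pacing, which stands in culture for the fast beating of a fibrillating atrium. Control cells were WT HL-1 cells labelled as control. The cells of all 6 libraries were kept in the same serum-containing Claycomb medium with norepinephrine. The labels give neither the pacing rate and duration nor the origin of the replicates (separate cultures or not). The p-values therefore cover the spread among the 6 libraries alone, and that spread may be technical. Expression was deposited as FPKM, a level scaled to transcript length and to the library total. The values do not show read depth, so no counting interval or detection limit can be given.

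CXC chemokines are small secreted proteins named for a pair of cysteines with 1 residue between them. Most proteins of this cluster carry a glutamate-leucine-arginine (ELR) motif just before those cysteines and attract neutrophils through the receptor Cxcr2. Cxcl1, Cxcl2 and Cxcl3 are inflammatory neutrophil attractants that macrophages, fibroblasts and epithelial cells make on stimulation, with transcription driven by NF-kB and transcripts that are short-lived. Cxcl5 is mainly an epithelial product, Cxcl15 is known from lung epithelium, and Pf4 (platelet factor 4) and Ppbp (pro-platelet basic protein) are stored in platelet granules.

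The coding bases at this motif are shown because they sort the members by receptor class. In the 7 lines, capitals mark the 6 codons that run from the ELR position through the second cysteine. All 7 stretches lie within exon 2 of the annotated coding transcript on the plus strand of GRCm38 (GENCODE M21), from chr5:90786353-90786385 for Cxcl3 and chr5:90904127-90904159 for Cxcl2 to chr5:90772929-90772961 for Pf4.
Cxcl3: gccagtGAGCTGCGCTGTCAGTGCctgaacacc
Cxcl2: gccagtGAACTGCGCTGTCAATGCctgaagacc
Cxcl1: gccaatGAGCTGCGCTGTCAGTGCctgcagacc
Cxcl5: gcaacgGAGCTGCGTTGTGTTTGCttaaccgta
Ppbp: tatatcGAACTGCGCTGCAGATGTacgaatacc
Cxcl15: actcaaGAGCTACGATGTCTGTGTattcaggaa
Pf4: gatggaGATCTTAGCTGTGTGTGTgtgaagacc

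Of the 7 genes, 6 held ELR codons and Pf4 did not. Cxcl3 and Cxcl2 were the closest pair, with 89.7% identical bases over aligned coding sequences of 300 columns. Cxcl1 matched Cxcl3 at 72.7% and Cxcl2 at 75.7%, and every other pair lay between 30.7% and 55.1%. On GRCm38 the cluster runs from 90759360 (Cxcl5 start) to 90905938 (Cxcl2 end), a span of 147 kb in which the annotation places 7 protein-coding genes, all of them members. Cxcl3 stands 114 kb before Cxcl2, with Cxcl15 and Cxcl1 between them.

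Before the values, the label of the cells needs a limit. Of 14 cardiomyocyte markers, 8 were listed at 0 in every library, among them Myh6, Actc1, Myl7 and Nkx2-5. The summed level of the list was 3.72 to 4.002 FPKM in tachypaced and 3.19 to 4.0003 FPKM in control libraries. Its largest part was Tnni3, detected in every library, at 3.59 ± 0.0657 FPKM in tachypaced and 3.21 ± 0.403 FPKM in control libraries. The 12 macrophage markers summed to 1835 to 2014 FPKM in tachypaced and 1487 to 1680 FPKM in control libraries, and none was listed at 0 throughout. They were not all high, with Fcgr1 and Mertk at means of 0.254 and 0.478 FPKM over all libraries. The libraries are therefore described by their labels and not as cardiomyocyte RNA. In such bulk libraries, fewer cells of a type and less RNA per cell cannot be told apart.

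Cxcl2 and Cxcl3, the close pair of neutrophil attractants, were both higher in tachypaced libraries, on very different scales. Cxcl2 was one of the most abundant transcripts of the whole table, and Cxcl3 was near 0 in control libraries. The other 5 genes of the cluster stayed below 1.5 FPKM in every library.

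Cxcl2, also called MIP-2 (chromosome 5, 90903871 to 90905938), stood at 1404, 1442 and 1216 FPKM in the tachypaced libraries, against 955, 751 and 672 FPKM in the control libraries. The groups did not overlap, and the lowest tachypaced library was 1216 FPKM against 955 FPKM in the highest control. The tachypaced mean was 1354 ± 121 FPKM and the control mean 793 ± 146 FPKM (SD, n = 3 each), a ratio of means of 1.71. On the log2(FPKM + 1) scale the difference, tachypaced minus control, was 0.78 (SE 0.12). Cxcl2 ranked 23rd, 25th and 32nd by FPKM among all rows in the tachypaced libraries, against 51st, 77th and 86th in the control libraries. Its share of all FPKM was 0.290% to 0.334% in tachypaced libraries and 0.161% to 0.232% in control libraries.

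Cxcl3 (chromosome 5, 90786103 to 90789600) stood at 14.2, 15.04 and 12.9 FPKM in the tachypaced libraries, against 0.688, 0 and 0.731 FPKM in the control libraries. All 3 tachypaced values exceeded every control value, and control replicate 2 was the library listed at 0. The log2(FPKM + 1) difference was 3.40 (SE 0.19), a scale that understates the change of low values. With a pseudocount of 0.1 in place of 1 the difference was 5.13, so its size rests on that choice, and no fold of the FPKM is given against a group with a library at 0.

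**Figure D1:**
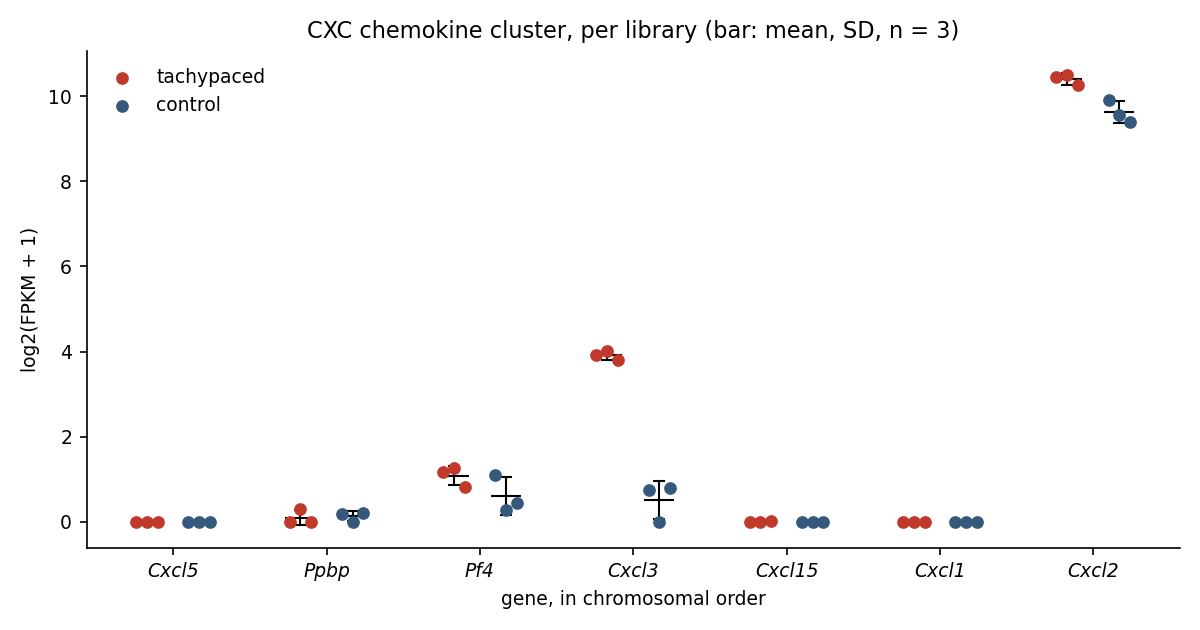
FPKM of the 7 cluster genes as log2(FPKM + 1), in chromosomal order, with 1 point per library (red tachypaced, blue control) and bars for the mean and SD of 3 libraries. Cxcl2 lies highest in both groups, Cxcl3 separates the groups most, and Cxcl5 and Cxcl1 sit at 0 in all 6 libraries.

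The remaining inflammatory ELR ligands gave no signal to compare. Cxcl1, known as KC (chromosome 5, 90891241 to 90893115), was listed at 0 in all 6 libraries although it lies 10.8 kb before Cxcl2. Cxcl5 (90759360 to 90761624) was also listed at 0 in all 6. Cxcl15 (90794534 to 90803067) was listed at 0 in 5 libraries and at 0.0156 FPKM in tachypaced replicate 3.

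The platelet chemokines were low. Pf4 (90772435 to 90773383) stood at 1.25, 1.39 and 0.780 FPKM in tachypaced libraries, against 1.16, 0.208 and 0.369 FPKM in control libraries. The groups overlapped, because control replicate 1 was above tachypaced replicate 3, and the means were 1.14 ± 0.319 and 0.580 ± 0.511 FPKM (SD, n = 3 each) in tachypaced and control libraries. Ppbp (90768518 to 90770063) stood at 0, 0.243 and 0 FPKM in tachypaced libraries, against 0.147, 0 and 0.149 FPKM in control libraries, with no separation. Among platelet and megakaryocyte markers, Tubb1 and P2ry12 were listed at 0 in every library, and the list summed to 5.55 to 6.48 FPKM in tachypaced and 4.70 to 5.77 FPKM in control libraries. The largest part of that sum was Selp, at 3.30 ± 0.172 FPKM in tachypaced and 2.98 ± 0.565 FPKM in control libraries. Below 1 FPKM in every library, Itga2b (0.616 against 0.384 FPKM) and Treml1 (0.848 against 0.636 FPKM) had higher tachypaced means. Gp1ba (0.656 against 0.792 FPKM), Gp1bb and Gp5 had lower ones.

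Of the 7 members, 2 reached the mean of 1 FPKM over the 6 libraries that the fit over all genes required, Cxcl3 and Cxcl2, and Cxcl3 reached it only through the tachypaced group. Both were among the genes called higher by limma (Benjamini-Hochberg adjusted p threshold of 0.05), a call that 2.30% of the 10361 tested genes received, while 5.52% were called in either direction. Both were also among the 12.6% of tested genes whose tachypaced values all exceeded the control values, and for 22.4% of tested genes all tachypaced values were below the control values. The members were chosen on this contrast, so nothing is read from these counts. As a background for the lists below, 3124 of the 10361 tested genes had an unadjusted limma p under 0.05, in either direction.

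By level, the order in tachypaced libraries was Cxcl2, Cxcl3, Pf4, Ppbp, Cxcl15, then Cxcl1 and Cxcl5 at 0. Ppbp and Cxcl15 overlapped there, while Cxcl2, Cxcl3 and Pf4 were each apart from their neighbours in that order. In control libraries Cxcl2 was again the highest, and the neighbours Pf4, Cxcl3 and Ppbp overlapped in that order, with ranges of 0.208 to 1.16, 0 to 0.731 and 0 to 0.149 FPKM. Cxcl2 accounted for 98.9% of the cluster's summed FPKM in each tachypaced library and for 99.8% to 99.97% in control libraries.

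**Figure D2:**
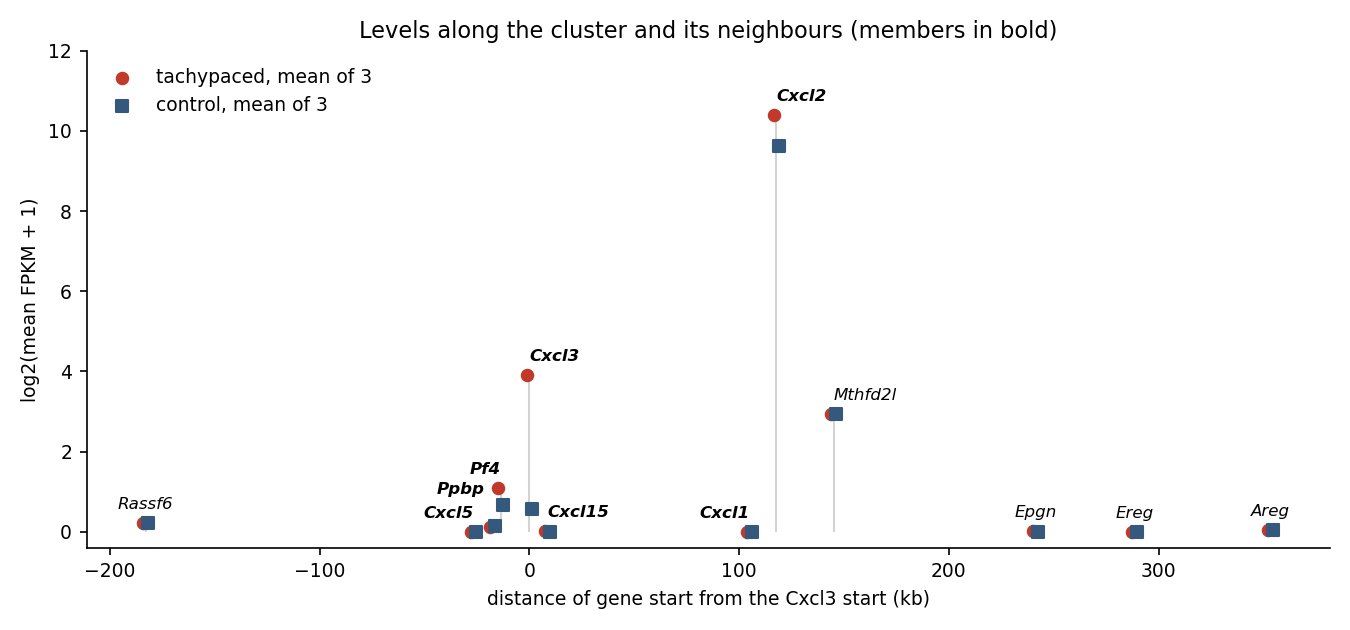
Mean level of each gene with a row in the table, as log2(mean FPKM + 1), against the distance of its start from the Cxcl3 start in kb, for tachypaced (red circles) and control (blue squares) means of 3 libraries. Within the stretch from Rassf6 to Areg, Cxcl2, Mthfd2l and, in tachypaced libraries, Cxcl3 stand above 2 on this scale.

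Because Cxcl3 and Cxcl2 are close in sequence, reads can be shared between them. Of 986 different words of 31 bases in the annotated Cxcl3 coding transcript, 80 (8.11%) also occur in that of Cxcl2, and 0 occur in that of Cxcl1. How the authors' quantification divides such reads is not given in the sources used here. As a share of Cxcl2, Cxcl3 stood at 1.01%, 1.04% and 1.06% in the tachypaced libraries, against 0.0721%, 0% and 0.109% in the control libraries. Both values in this ratio were known when the members were picked, so nothing is read from its difference between the groups. The part of shared reads in the Cxcl3 values was not tested.

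Control replicate 1 was the control closest to the tachypaced libraries for Cxcl2 and Pf4. On a log2(FPKM + 1) scale on which the mean of the other controls is 0 and the tachypaced mean is 1, it stood at 0.461 for Cxcl2, at 1.04 for Pf4 and at 0.102 for Cxcl3. Without this library the log2 difference was 0.93 for Cxcl2 and 3.515 for Cxcl3.

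The bases before the start sites of Cxcl3, Cxcl2 and Cxcl1 are shown because the first and second were detected and the third was not. Sequences are RefSeq promoter windows of GRCm38.p6, plus strand, at chr5:90785851-90786100 for Cxcl3, chr5:90903649-90903870 for Cxcl2 and chr5:90890995-90891240 for Cxcl1, ended before the earlier of the RefSeq and GENCODE starts. Capitals mark the bases that match the NF-kB consensus on either strand, as a pair of overlapping matches in each gene.
Cxcl3: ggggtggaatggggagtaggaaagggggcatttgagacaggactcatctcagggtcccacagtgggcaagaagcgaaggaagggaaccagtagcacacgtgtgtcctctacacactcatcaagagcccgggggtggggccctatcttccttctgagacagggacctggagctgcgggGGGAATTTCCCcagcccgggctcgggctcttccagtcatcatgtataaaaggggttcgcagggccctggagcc
Cxcl2: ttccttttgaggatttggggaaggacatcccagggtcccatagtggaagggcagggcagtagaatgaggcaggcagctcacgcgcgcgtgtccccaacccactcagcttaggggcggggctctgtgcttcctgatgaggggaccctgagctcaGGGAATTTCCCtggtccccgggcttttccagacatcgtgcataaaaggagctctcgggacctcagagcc
Cxcl1: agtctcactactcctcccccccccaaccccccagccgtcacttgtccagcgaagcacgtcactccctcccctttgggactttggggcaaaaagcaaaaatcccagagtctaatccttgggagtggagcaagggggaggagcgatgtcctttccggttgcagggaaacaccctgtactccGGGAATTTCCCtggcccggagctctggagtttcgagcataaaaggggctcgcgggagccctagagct

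Each of these windows held the same 10 bases, GGGAATTTCC, with the first base 75, 69 and 67 bases before the GENCODE starts of Cxcl3, Cxcl2 and Cxcl1. Of 32851 RefSeq windows of 250 bases before a start, 28 (0.0852%) held these letters on either strand, while 1281 (3.90%) matched the NF-kB consensus. Ppbp, Pf4 and Cxcl15 had windows and no match to the consensus, and Cxcl5 had no window in the table used. TATAAA, the core of the TATA box, was found on either strand in the windows of Ppbp, Cxcl3 and Cxcl15 and in 12.4% of all windows. TGANTCA, an AP-1 motif, was found in Ppbp (6.75% of all windows), and TTGCNNAA, a C/EBP motif, in Pf4 (9.56%); none of these matches overlapped an NF-kB match. A match is a description of letters, and Cxcl1, with the shared letters, was listed at 0 in every library.

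The shared letters were also present in windows of 25 other genes, of which 18 had a row in the table and 9 were tested. Among those tested, 0 passed limma in either direction, with 0 higher and 1 lower at an unadjusted p under 0.05. Since 2.30% of all tested genes were called higher and 3.22% lower, 0 of 9 is near those shares and nothing is read from it. The median log2 difference of these 9 genes was -0.01, against -0.04 over all genes tested. The 9 include Nfkbia, which encodes the inhibitor IkB-alpha and is itself an NF-kB target, at 168 ± 3.37 FPKM in tachypaced and 161 ± 10.6 FPKM in control libraries (limma adjusted p = 0.494). Also among them was Map3k7, which encodes the kinase TAK1, at a log2 difference of -0.04 (adjusted p = 0.738). These 25 genes were looked up after the values of the members were seen.

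Other chemokines of the CXC, CX3C and XC classes were mostly low. Of 10 such genes 9 had a row, 4 were listed at 0 throughout (Cxcl9, Cxcl12, Cxcl13 and Cxcl14), and 1 was tested. That gene, Cxcl16, a membrane-anchored chemokine and scavenger receptor, stood at 8.88 ± 0.425 FPKM in tachypaced and 9.37 ± 1.46 FPKM in control libraries (log2 difference -0.06, SE 0.10, limma adjusted p = 0.709). Cxcl10, an interferon-induced ligand of Cxcr3, was below the level tested, at 1.05 ± 0.183 FPKM in tachypaced and 0.813 ± 0.114 FPKM in control libraries.

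The receptors for the cluster's ligands were listed at or near 0. Cxcr2, the receptor for ELR chemokines, was listed at 0 in all 3 tachypaced libraries and at 0.0239 FPKM in control replicate 3, its highest value. Cxcr1 was listed at 0 in 5 libraries and at 0.0180 FPKM in tachypaced replicate 3, and Ackr1, the erythrocyte and venular scavenger of CXC ligands, was listed at 0 in all 6. Cxcr3 stood at 0.274 ± 0.108 FPKM in tachypaced and 0.140 ± 0.0501 FPKM in control libraries. Of 10 receptor and binding-protein genes, 3 were tested and 0 passed limma in either direction. A count of 0 in 3 is near the 5.52% called over all tested genes. At an unadjusted p under 0.05, 1 of the 3 was higher. This was Sdc4, a heparan sulfate proteoglycan of the surface, a class that binds chemokines, at 132 ± 5.12 FPKM in tachypaced and 114 ± 7.17 FPKM in control libraries (adjusted p = 0.0704), while its relative Sdc1 had a log2 difference of -0.07 (adjusted p = 0.588).

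Of 10 tested genes among the cytokines and receptors known to induce these chemokines, 2 rose and 0 fell. Over all tested genes, 2.30% rose and 3.22% fell. At an unadjusted limma p under 0.05, 3 of the 10 were higher and 0 lower. Their median log2 difference was 0.08, against -0.04 over all genes tested. Cd14, the endotoxin co-receptor, stood at 119 ± 9.20 FPKM in tachypaced and 82.2 ± 7.84 FPKM in control libraries (log2 difference 0.53, SE 0.08, limma adjusted p = 0.0435). Tnf, which encodes tumour necrosis factor, stood at 53.8 ± 1.99 FPKM in tachypaced and 41.8 ± 4.54 FPKM in control libraries (log2 difference 0.36, SE 0.08, adjusted p = 0.0435). Il1b and Il17a, which encode the classical inducers interleukin-1 beta and interleukin-17A, were listed at 0 in every library. Neither call held when any library other than control replicate 1 was left out, with adjusted p between 0.0669 and 0.172, with quantile normalization (0.0514 for Cd14 and 0.0520 for Tnf), without the trend or without the filter on low values. Each passed in 5 of 13 alternatives.

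Downstream of those receptors, of 16 adaptor and kinase genes all were tested and 0 passed limma. With 2.30% of all tested genes called higher and 3.22% lower, 0 of 16 is near those shares. At an unadjusted p under 0.05, 1 of the 16 was higher and 1 lower. The median log2 difference of the 16 genes was 0.02, against -0.04 over all genes tested. The most abundant of them, Mapkapk2, the p38-activated kinase that stabilizes inflammatory transcripts, stood at 157 ± 1.91 FPKM in tachypaced and 155 ± 0.618 FPKM in control libraries (adjusted p = 0.795). Chuk, the IKK-alpha kinase, had a log2 difference of 0.05 (adjusted p = 0.622).

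Of 21 tested genes for NF-kB, AP-1 and C/EBP factors and their inhibitors, 1 rose and 0 fell. Their median log2 difference was 0.12, against -0.04 over all genes tested. The shares over all tested genes were 2.30% higher and 3.22% lower. At an unadjusted limma p under 0.05, 4 of the 21 were higher and 1 lower. The gene that passed was Cebpb, a leucine zipper factor that induces acute-phase and cytokine genes, at 74.6 ± 7.15 FPKM in tachypaced and 58.6 ± 4.57 FPKM in control libraries (log2 difference 0.34, SE 0.08, limma adjusted p = 0.0491). It passed in 4 of 13 alternatives, with adjusted p between 0.0114 and 0.178 over all of them, and among the libraries left out in turn it passed only without control replicate 1. Nfkbiz, a nuclear IkB protein needed for some secondary response genes, stood at 14.1 ± 0.999 FPKM in tachypaced and 15.1 ± 0.638 FPKM in control libraries (adjusted p = 0.368).

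Regulators of the decay of chemokine transcripts gave 12 tested genes, of which 0 passed limma and 2 were higher at an unadjusted p under 0.05. Among all tested genes 2.30% were called higher and 3.22% lower, and 0 of 12 is near those shares. The median log2 difference of the 12 genes was -0.002, against -0.04 over all genes tested. Zfp36, which encodes tristetraprolin, a protein that promotes decay of AU-rich transcripts, stood at 35.6 ± 1.28 FPKM in tachypaced and 29.3 ± 4.25 FPKM in control libraries, groups that did not overlap (log2 difference 0.28, SE 0.09, adjusted p = 0.0855). Zc3h12a, the endonuclease Regnase-1, had a log2 difference of -0.02 (adjusted p = 0.891), and the RNA-binding proteins Hnrnpd and Tial1 had adjusted p of 0.784 and 0.979.

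Genes next to the cluster did not show a difference past the test. Of 12 flanking genes 4 were tested and 0 passed limma, with 0 higher and 1 lower at an unadjusted p under 0.05. A count of 0 in 4 is near the 5.52% called over all tested genes. Mthfd2l, a mitochondrial folate enzyme gene that follows Cxcl2, stood at 6.66 ± 0.621 FPKM in tachypaced and 6.60 ± 0.313 FPKM in control libraries (adjusted p = 0.951). The growth factor gene Ereg was listed at 0 in all 6 libraries and Areg stood at or below 0.0648 FPKM. Farther out, Cox18 had a log2 difference of 0.001 (adjusted p = 0.995) and Ankrd17 one of -0.22 (adjusted p = 0.0645).

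**Figure D3:**
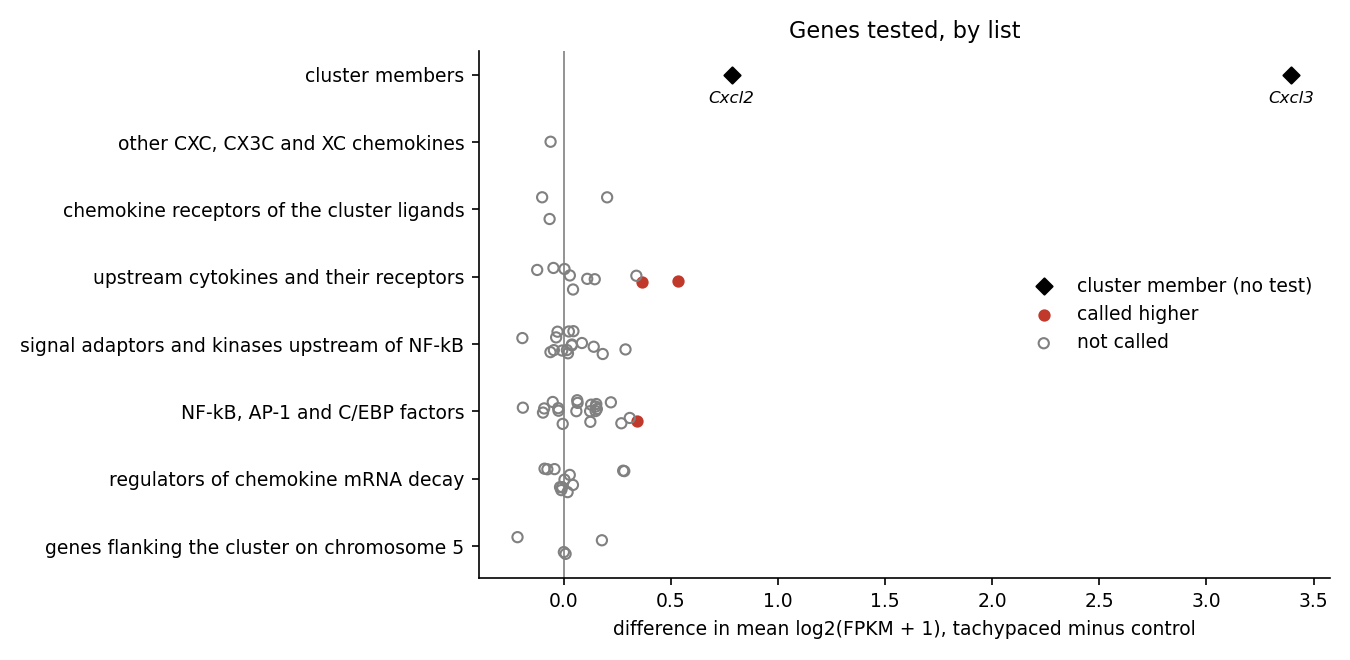
Difference in mean log2(FPKM + 1), tachypaced minus control, for every tested gene of the 7 pathway lists (circles) and for the 2 tested cluster members (diamonds, not tested here). Filled circles are the genes that passed limma, Cd14, Tnf and Cebpb, and no pathway gene lies as far right as Cxcl2.

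Over these 7 pathway lists together, 3 of 67 tested genes rose and 0 fell, against 2.30% higher and 3.22% lower over all tested genes. Without control replicate 1, 14 rose and 3 fell, and without any other single library 0 rose and 0 fell. With median of ratios scaling the split over all genes was 268 higher and 180 lower, against 238 higher and 334 lower on the deposited scale. Of 10 tested macrophage markers, 3 rose (Lyz2, Cd14 and Fcer1g) and 7 did not pass limma. At an unadjusted limma p under 0.05, 8 of the 10 were higher and 0 lower. Their median log2 difference was 0.25, against -0.04 over all genes tested. Csf1r, the receptor for colony-stimulating factor 1, did not pass, at 94.8 ± 3.22 FPKM in tachypaced and 95.5 ± 8.09 FPKM in control libraries. Like Cd14, Lyz2 and Fcer1g each passed in 5 of 13 alternatives and lost the call when any library other than control replicate 1 was left out (limma adjusted p between 0.0669 and 0.172). The list's lowest tachypaced sum of 1835 FPKM was above its highest control sum of 1680 FPKM. Of 15 neutrophil markers, 5 (Ly6g, Ctsg, Ltf, Ngp and Retnlg) were listed at 0 in every library. Of the 3 tested, 0 passed limma and 2 were higher at an unadjusted p under 0.05. Over all 10361 tested genes, 3124 were under that p, in either direction. The neutrophil list summed to 12.3 to 14.1 FPKM in tachypaced and 8.96 to 12.2 FPKM in control libraries. Its largest part was Itgam, at 8.53 ± 0.713 FPKM in tachypaced and 6.77 ± 1.05 FPKM in control libraries. Itgam was among the 3 tested and is also on the macrophage list. The others tested were Csf3r and Prtn3, with log2 differences of 0.52 and -0.04. Csf3r stood at 1.64 ± 0.262 FPKM in tachypaced and 0.879 ± 0.524 FPKM in control libraries, groups that overlapped. The 10 fibroblast and endothelial markers summed to 1.62 to 1.92 FPKM in tachypaced and 1.73 to 1.98 FPKM in control libraries. The part of these markers in the members' values was not tested.

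To describe which genes ran most like the members, tested genes were rescaled to 0 at their lowest and 1 at their highest library, and ordered by the mean absolute difference from the member over the 6 libraries. Cxcl3 and Cxcl2 differed from each other by 0.134 on this measure. The 9689 genes ordered leave out the members and tested rows with provisional names (such as Gm and Rik symbols), and all values come from the same 6 libraries. Nearest to Cxcl3 were Ube2k, a ubiquitin-conjugating enzyme gene (0.0235), Naaa, a lysosomal amidase gene (0.0288), Capza2, an actin capping gene (0.0597), Adnp2 (0.0598) and Oscar, an osteoclast-associated receptor gene (0.0611). These profiles were alike in shape and not in size, since the log2 differences of these 5 genes ran from 0.07 for Capza2 to 0.42 for Oscar. Nearest to Cxcl2 were Serp1, an endoplasmic reticulum stress gene (0.0150), Lcn2, lipocalin 2 (0.0158), Saa3, an acute-phase serum amyloid gene (0.0177), Eif1, a translation initiation factor gene (0.0203), and Txndc12, a reticulum thioredoxin gene (0.0208). Lcn2 stood at 44.02, 43.9 and 31.4 FPKM in tachypaced libraries, against 17.6, 11.6 and 9.09 FPKM in control libraries. Tachypaced replicate 3 was the lowest of its group and control replicate 1 the highest of its own, as for Cxcl2. This likeness follows from picking genes by their nearness to the Cxcl2 profile.

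**Figure D4:**
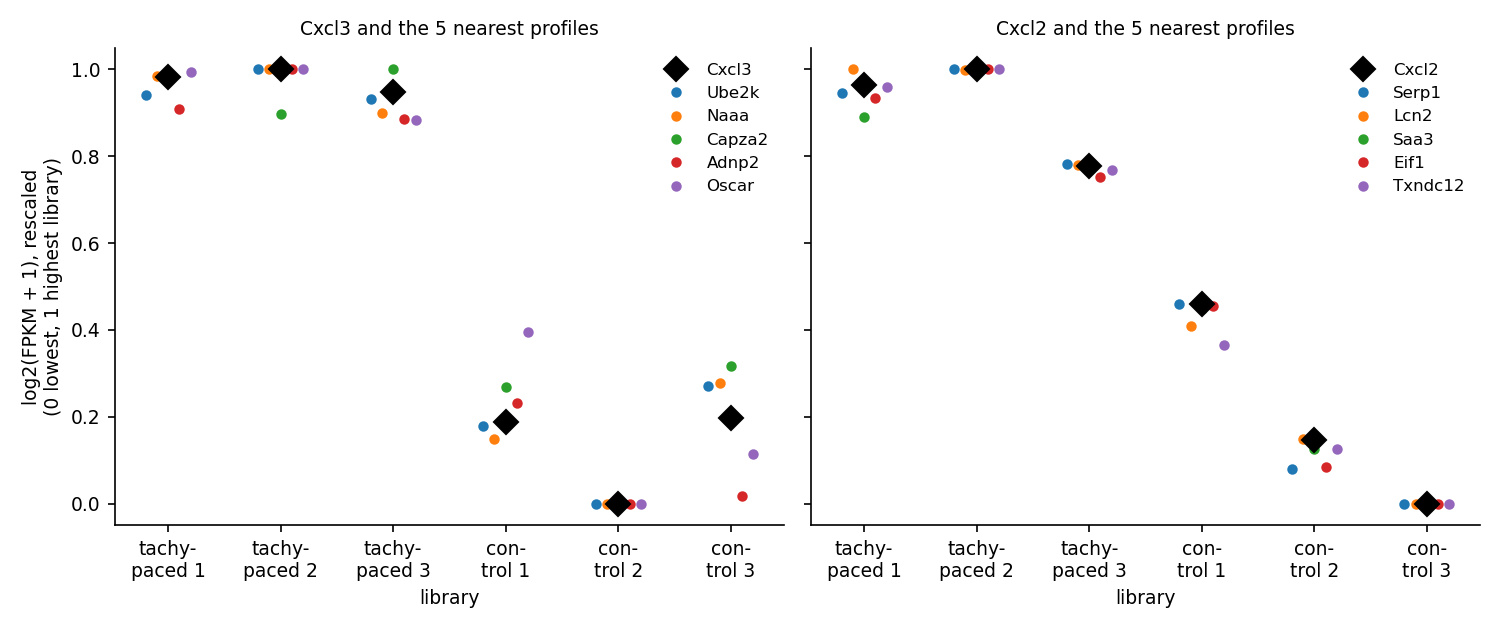
Log2(FPKM + 1) rescaled to 0 at the lowest and 1 at the highest library, for Cxcl3 (left) and Cxcl2 (right) as diamonds and their 5 nearest genes as points, over the 3 tachypaced and 3 control libraries. Control replicate 1 stands at 0.460 for Cxcl2 and at 0.189 for Cxcl3, and the genes of each set follow because they were picked for nearness.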

How the data were processed

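Poly(A) RNA libraries, 3 tachypaced and 3 control, were made from cells labelled HL-1 with a SMARTER mRNA kit, per the labels' protocols. The authors deposited 1 table of FPKM per gene name, and GRCm38 (mm10) is the build named, per the submitters' processing notes. Aligner, quantifier, annotation and strandedness: not given in the sources used here. Columns were matched to libraries by the sample descriptions and groups were taken from the titles. The FPKM summed to 411050 to 432244 per library, and no 2 libraries were identical. No step of whole reads showed among FPKM under 0.5: at most 3.45% of the ratios between libraries fell into any log2 bin 0.05 wide, and depth is unknown.

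The members and all lists were chosen with earlier results of these data known. On the log2(FPKM + 1) scale, the 10361 genes averaging 1 FPKM or more were fitted with limma 3.58.1 in R 4.3.3 (two-sided, with a mean-variance trend and no covariates, as tachypaced minus control), adjusted by Benjamini-Hochberg over all of them. An exact permutation test of 3 against 3 libraries could not reach the threshold and was not used. The fit was tested on simulated data. No set test was run. Of 171 listed symbols, 169 were in the table. The text names all members, up to 5 passing genes per pathway list (the 2 most abundant where none passed), a fixed set of receptors, inducers, regulators and neighbours, and the 5 nearest profiles per tested member. Positions are from GENCODE M21 and promoter windows from RefSeq on GRCm38.p6. Motifs were searched on both strands of the 250 bases before each start, and coding sequences were aligned globally with Biopython 1.88.

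Alternatives were a filter at 5 FPKM, no filter, a pseudocount of 0.1, scaling by median of ratios, quantile normalization, no trend, the replicate number as a block and each library left out in turn.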

Additional observations from a re-analysis of the deposited data

How the results depend on the processing

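The log2 difference of Cxcl2 stayed between 0.67 and 0.93 and that of Cxcl3 between 3.14 and 3.53 when each library was left out in turn. Cxcl3 moved to 5.13 with a pseudocount of 0.1, and no other alternative moved either by more than the spread within groups. Counts over all genes were less stable. Against 238 genes higher and 334 lower, there were 0 and 0 without a filter on low values, although 3488 of 15992 genes then had an unadjusted p under 0.05. There were 13 higher and 4 lower with quantile normalization, 2 and 0 without the trend, 180 lower with median of ratios scaling, and 1 to 1162 higher and 0 to 1947 lower when each library was left out. Of the pathway lists' 3 higher genes, 0 passed without the filter, with quantile normalization or without the trend. When each library was left out, 0 to 14 were higher and 0 to 3 lower. Over the 17 tested genes named from those lists, no direction reversed in a call, 25 results lost the threshold and 3 passed it anew. The replicate block gave 591 genes lower and changed no pathway call. The labels do not say that equal numbers mark a pair, and same-numbered deviations correlated across genes at 0.0615, -0.0340 and 0.157, so the numbers were not taken as pairs, and not every library correlated best with its own number. The cause of these shifts was not tested. Depth is unknown, so genes listed at 0 cannot be called absent.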
